A study of Saccharomyces cerevisiae with 2 samples.

Results

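This account covers the yeast genes of 4 families of nucleosome-handling proteins, the SWI/SNF and RSC remodelers, the ISWI and Chd1 remodelers and the histone chaperones, in a genetic interaction mapping (GIM) screen. The members are 41 genes listed by name, out of 5094 genes with probes on the array. They were matched to probes through the platform's gene symbols or their synonyms. All 41 had probes, 29 had a value on both arrays, and the other 12 had no value on either. In the labels' protocols, query mutants were combined with a pool of *Saccharomyces cerevisiae* DAmP strains, in which a disturbed 3′ end makes the mRNA of a gene less abundant. Haploid double mutants derived from BY4742/BY4741 then grew for 18 generations under G418 and nourseothricin. On each of 2 arrays of independent experiments, barcodes of the query pool, labelled with Cy3, were set against those of a reference GIM pool, labelled with Cy5.

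The titles name *PIH1* as the query, whereas the descriptions and source names give an *RSA1* deletion. The 33 measured genes within 50 kb of *PIH1* had a median log2 ratio of -1.02, with 30 of them below 0, as linkage to a deleted query gene produces in such screens. The 42 genes within 50 kb of *RSA1* had a median of 0.04, with 18 below 0. On this basis the ratio was read as query pool over reference pool, which is likely but not stated. The log base is not stated either and was read as base 2 from the range of the values, and another base would multiply every log ratio by a constant and change the folds. A negative value then means fewer double mutants in the query pool. A query or dye effect shared by both arrays cannot be told apart, because the 2 arrays had the same query and the same dyes. The labels name no separate cultures, so the spread between the arrays may be partly technical. Probes name genes, so a value belongs to a gene and not to a known allele of it.

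Chromatin remodelers use ATP to move, space or remove nucleosomes. SWI/SNF and the related RSC complex slide and evict nucleosomes at promoters, RSC being required for growth. The ISWI ATPases Isw1 and Isw2 and the ATPase Chd1 set nucleosome spacing. Histone chaperones bind free histones: CAF-1 deposits H3-H4 behind replication forks, the HIR complex deposits H3-H4 outside replication and represses histone genes, FACT and Spt6 act on nucleosomes during transcription, and Nap1 binds H2A-H2B. Pih1 belongs to R2TP, which works with HSP90 and contains the ATPases Rvb1 and Rvb2, also found in the INO80 and SWR1 remodelers.

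Among the 29 measured genes the ratios were spread widely and centred near 0. Their median was 0.05, against -0.01 over all 4048 genes tested, and the SD over genes was 1.14, against 0.87. CAF-1 genes, *NAP1*, *CHD1* and *IOC2* were high, mainly on array 2, and *SNF11*, *RSC4*, *ISW2* and *IOC3* were low. Of these high genes only *NAP1* was at or above 1 on array 1 too. The 4 HIR genes were low on array 1 only. The value of a gene is its log2 ratio averaged over probes after each array was centred on its median, and errors are SDs over 2 arrays. Array 2 had the wider scale: the median absolute deviation (MAD) over probes, as an SD, came to 0.35 for array 1 and 0.63 for array 2. Percentiles among the 4048 genes are therefore given by array as well.

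On both arrays 11 members (37.9%) were positive and 9 (31.0%) negative, against 34.7% and 33.9% of all genes, shares close to the background. A mean at or above 1 was found for 6 members (20.7%), against 12.5% of all genes, and a mean at or below -1 for 5 (17.2%), against 3.31%. No member passed the test. By limma, 0 of the 29 had a Benjamini-Hochberg adjusted p under 0.05, as did 0 of all 4048 genes (0%), and the smallest adjusted p of a member was 0.23. At an unadjusted p under 0.05 there were 9 members (31.0%), against 678 genes (16.7%). For a single gene on 2 arrays, the smallest p of an exact two-sided permutation of signs is 0.5. The test calls more genes when the arrays are first brought to a common scale. With both arrays brought to the same MAD, here called MAD scaling, 6 members (20.7%) passed, against 11.3% of all genes. Of the 6, 3 were higher and 3 lower, against 8.97% and 2.3% of all genes. With quantile normalization 5 members (17.2%) passed, against 10.7%, of which 2 were higher and 3 lower, against 8.84% and 1.83%. *SNF11*, *RSC4*, *IOC3*, *MSI1* and *NAP1* passed under both scalings, and *RSC6* under the first alone.

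**Figure D1:**
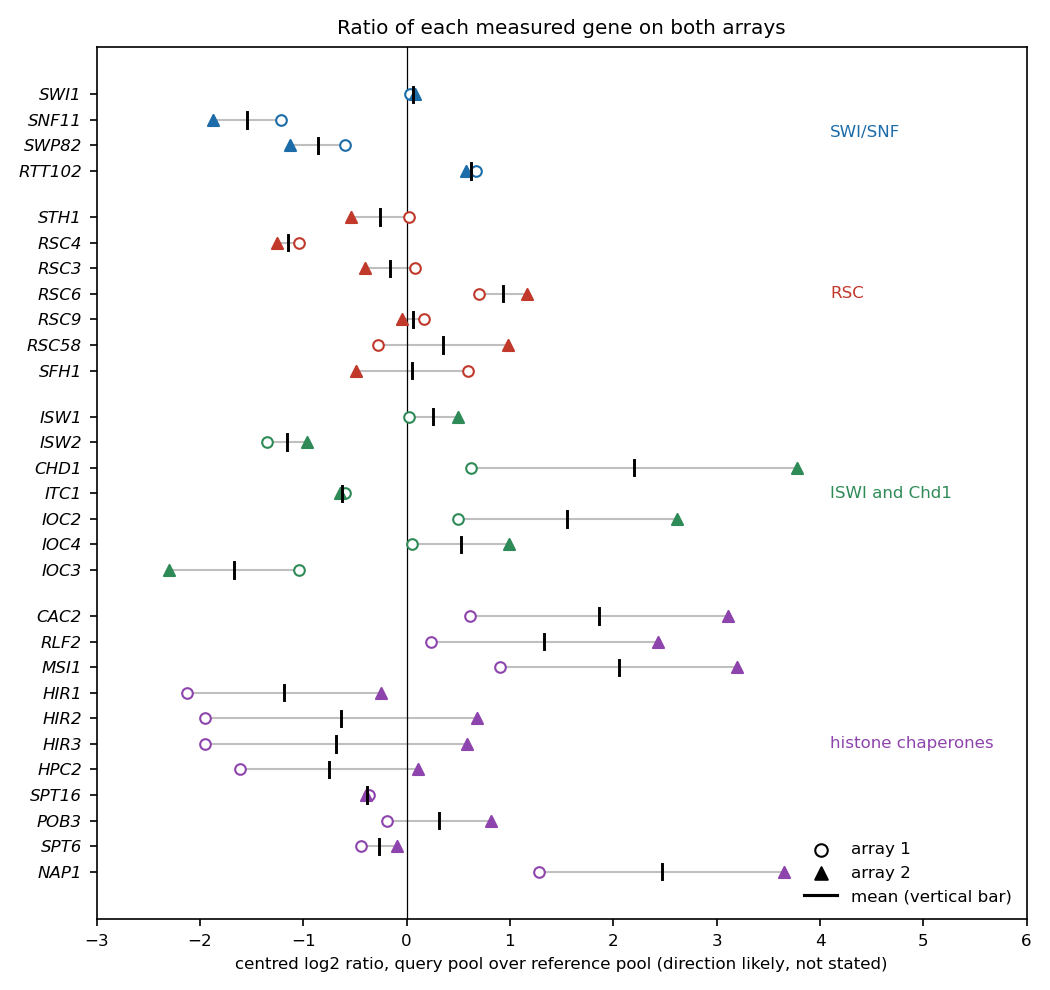
Centred log2 ratio (horizontal axis) of each of the 29 measured genes, grouped by family, on array 1 (open circles) and array 2 (filled triangles), with the mean as a vertical bar. The 4 HIR genes lie between -2.13 and -1.61 on array 1 and between -0.25 and 0.69 on array 2, and the 3 CAF-1 genes are above 0 on both arrays.

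SWI/SNF was measured only in part. Of its 9 genes, 5 had probes but no value on either array: the ATPase gene *SNF2*, and *SWI3*, *SNF5*, *SNF6* and *SNF12*, which encode core and accessory subunits. Among all 5094 probed genes 13.7% had no value on either array, and among the 41 members 29.3%. The cause of the missing values was not tested. The median of the 4 measured genes was -0.40, from -0.28 on array 1 and -0.52 on array 2.

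*SNF11* encodes a small subunit that binds Snf2. It stood at -1.22 on array 1 and -1.88 on array 2, a mean of -1.55 ± 0.47 (limma SE 0.26, adjusted p = 0.23), or 2.92-fold lower in the query pool. All 4 of its probes were low on both arrays, from -1.33 to -1.16 on the first and from -2.07 to -1.76 on the second. It was at percentile 2.0 on array 1 and 1.61 on array 2. Of the genes on either side of it, *IPT1* stood at -0.51 and -0.59 and *TPS2* at 1.25 and 3.14. After MAD scaling the adjusted p of *SNF11* was 0.0191, and after quantile normalization 0.0253.

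*SWP82*, the gene of a SWI/SNF subunit with a paralogue in RSC, was also negative on both arrays, at -0.59 and -1.13 (mean -0.86 ± 0.38). *SWI1*, which encodes a large DNA-binding subunit, lay at 0.04 and 0.08. *RTT102*, whose product is shared between SWI/SNF and RSC, stood at 0.67 and 0.57 (mean 0.62 ± 0.07). The 4 measured SWI/SNF genes thus did not share a direction: as centred, 2 were negative and 2 positive on both arrays. The sign of *SWI1* depends on the centring, its mean being -0.11 without it.

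As means over both arrays, RSC genes lay near 0 with 2 exceptions, but 5 of those measured changed sign between the arrays. Of 13 genes, 7 were measured, with a median of 0.05 (0.08 on array 1 and -0.40 on array 2), which was -0.11 without centring. *RSC1* and *RSC2*, which encode alternative bromodomain subunits, *RSC8*, *HTL1*, *LDB7* and *NPL6* had no value on either array. *RSC4*, which encodes a bromodomain subunit that binds acetylated H3, stood at -1.04 on array 1 and -1.26 on array 2 (mean -1.15 ± 0.15, limma SE 0.19, adjusted p = 0.23). That is 2.22-fold lower, with percentiles of 2.72 and 3.61. Its adjusted p was 0.0401 after MAD scaling and 0.0323 after quantile normalization.

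*RSC6*, which encodes the RSC counterpart of Snf12, went the other way, with 0.71 and 1.17 (mean 0.94 ± 0.33). Its adjusted p was 0.0474 after MAD scaling and 0.0519 after quantile normalization. The other 5 measured RSC genes changed sign between the arrays as centred. The ATPase gene *STH1* stood at 0.02 and -0.54, from 1 probe per array. *RSC3*, encoding a zinc cluster DNA-binding subunit, stood at 0.08 and -0.40, and *RSC9* at 0.17 and -0.04. *RSC58* stood at -0.27 and 0.99, and *SFH1*, the RSC counterpart of *SNF5*, at 0.60 and -0.49 from 1 probe per array. For these 5 genes the mean lay between -0.26 and 0.36, and the direction was not settled.

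**Figure D2:**
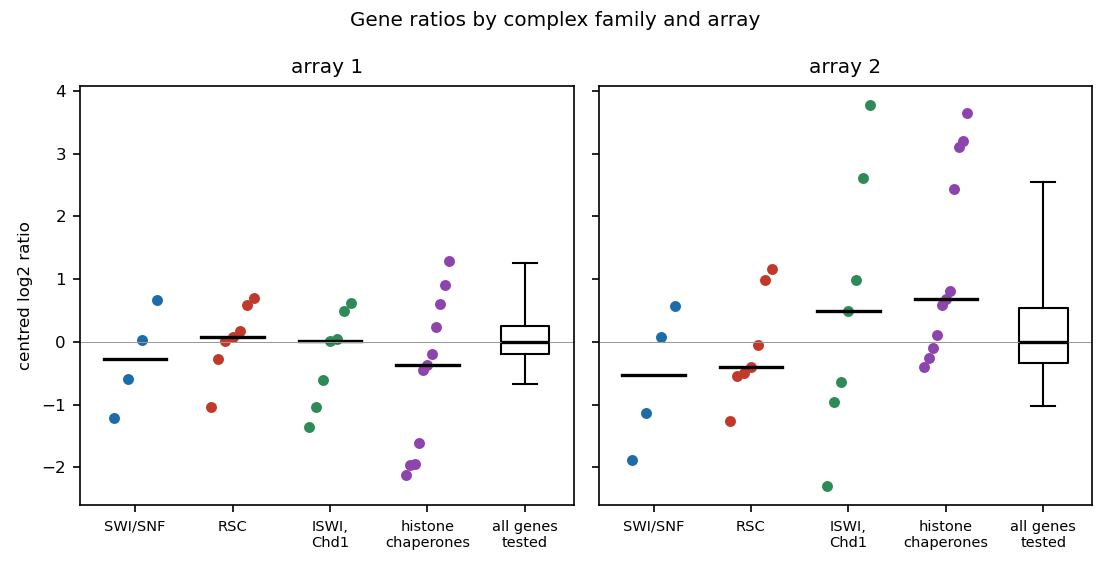
Centred log2 ratio of the measured genes by family (points, horizontal bar at the median) beside all 4048 genes tested (box at the quartiles, line at the median, whiskers at the 5th and 95th percentiles), for array 1 (left) and array 2 (right). The histone chaperones span -2.13 to 1.28 on array 1 and -0.39 to 3.65 on array 2, the RSC genes -1.04 to 0.71 and -1.26 to 1.17.

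All 7 ISWI and Chd1 genes were measured. As centred, 4 were positive and 3 negative on both arrays. For *ISW1* and *IOC4* the array 1 values, 0.02 and 0.05, were smaller in size than the array 1 column median of -0.06 removed by centring. Their sign on array 1 therefore depends on the centring. The 7 had a median of 0.26, made of 0.02 on array 1 and 0.50 on array 2, and their SD over genes was 1.41, against 0.64 for RSC. *ISW2* and *ITC1* encode the ATPase of the Isw2 complex and its partner. *ISW2* stood at -1.35 on array 1 and -0.96 on array 2, with a mean of -1.16 ± 0.27 (limma SE 0.21, adjusted p = 0.23). *ITC1* stood at -0.60 and -0.65 (mean -0.62 ± 0.03), from 1 probe per array. Both genes were thus low on both arrays, at percentiles of 1.56 and 6.20 on array 1 and 5.66 and 11.4 on array 2.

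Isw1 forms 2 complexes, Isw1a with Ioc3 and Isw1b with Ioc2 and Ioc4. The partner genes lay on opposite sides of 0. *IOC3* stood at -1.04 on array 1, from 1 probe, and -2.29 on array 2, from 2 probes, with a mean of -1.67 ± 0.89 (limma SE 0.40, adjusted p = 0.25). This was the lowest mean of the 29 genes, 3.18-fold lower, with adjusted p = 0.0192 after MAD scaling and 0.0486 after quantile normalization. *IOC2* stood at 0.49 and 2.61 (mean 1.55 ± 1.5, limma SE 0.62, adjusted p = 0.36). *IOC4* stood at 0.05 and 0.99 (mean 0.52 ± 0.67), from a single probe. *ISW1* itself, with 4 probes, lay between these at 0.02 and 0.50 (mean 0.26 ± 0.34).

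*CHD1*, the gene of the third spacing ATPase, had the highest value of the 29 on array 2. It stood at 0.62 on array 1 and 3.78 on array 2 (mean 2.20 ± 2.23, limma SE 0.90, adjusted p = 0.37), from 1 probe per array. The gap between the arrays was wider than the mean itself. Among the other members with a mean at or above 1, the same held for *IOC2* and the CAF-1 genes but not for *NAP1*. Among the 4 measured ATPase genes, *CHD1* was high, *ISW2* low, and *ISW1* and *STH1* near 0.

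The histone chaperones held the highest mean of the list, that of *NAP1*, and the lowest value on array 1, that of *HIR1*. Of 12 genes 11 were measured, and *ASF1*, encoding the chaperone that hands H3-H4 to CAF-1 and HIR, had no value on either array. The 11 had a median of -0.27, made of -0.36 on array 1 and 0.69 on array 2, and it was 0.02 over the genes with at least 2 probes on each array. CAF-1 and HIR genes lay on opposite sides of this median.

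All 3 CAF-1 genes were positive on both arrays. *CAC2* stood at 0.61 and 3.11 (mean 1.86 ± 1.76, limma SE 0.72, adjusted p = 0.35). *MSI1* stood at 0.91 and 3.20 (mean 2.05 ± 1.62, limma SE 0.67, adjusted p = 0.30). *RLF2*, which encodes the large subunit, stood at 0.23 and 2.43 (mean 1.33 ± 1.56, limma SE 0.64, adjusted p = 0.42), from 1 probe per array. On array 1 these genes ranged from percentile 73.5 to 92.2, and on array 2 from 94.5 to 96.7. At or above 2 on array 2 were 8.23% of all genes, and 6 of the 29 members, namely the CAF-1 genes, *NAP1*, *CHD1* and *IOC2*. After MAD scaling *MSI1* had an adjusted p of 0.0439, *CAC2* of 0.0915 and *RLF2* of 0.21.

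*NAP1* had the highest mean of the 29 genes. It stood at 1.28 on array 1 and 3.65 on array 2 (mean 2.47 ± 1.68, limma SE 0.69, adjusted p = 0.27), 5.54-fold higher. Both probes were high on both arrays, at 0.94 and 1.63 on array 1 and 3.37 and 3.94 on array 2. The adjusted p was 0.0224 after MAD scaling and 0.0226 after quantile normalization. *NAP1* was the only member at or above 1 on both arrays, 1 of 29 (3.45%), against 6.4% of all genes; after either scaling there were 2. *SNF11*, *RSC4* and *IOC3* were the members at or below -1 on both, 3 of 29 (10.3%), against 2.03% of all genes. After MAD scaling there were 2 such members, and after quantile normalization 3.

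The HIR genes differed between the arrays as a group. *HIR1* stood at -2.13 on array 1 and -0.25 on array 2 (mean -1.19 ± 1.33, limma SE 0.56, adjusted p = 0.42). *HIR2* stood at -1.95 and 0.69 (mean -0.63 ± 1.87), from 1 probe per array. *HIR3* stood at -1.95 and 0.58 (mean -0.68 ± 1.79). *HPC2*, the gene of the fourth subunit, stood at -1.61 and 0.11 (mean -0.75 ± 1.22). On array 1 all 4 lay between percentiles 0.469 and 1.01 of all genes, and on array 2 between 30.4 and 78.1. The low values were thus on array 1, the array with the narrower scale. The cause was not tested.

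The single probes of the HIR genes were as follows. The 4 probes of *HPC2* lay between -1.70 and -1.52 on the first array, and between -0.28 and 0.29 on the second. Those of *HIR1* stood at -2.30 and -1.95 on array 1, and at 0.12 and -0.61 on array 2. Those of *HIR3* stood at -2.03 and -1.86 on array 1, and at 0.76 and 0.41 on array 2. Probes of *HIR1*, *HIR3* and *HPC2* differed within a gene by at most 0.34 on array 1 and 0.73 on array 2, which is the spread of probes within an array and not that between experiments. The mean over both arrays does not represent either of them for these genes.

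**Figure D3:**
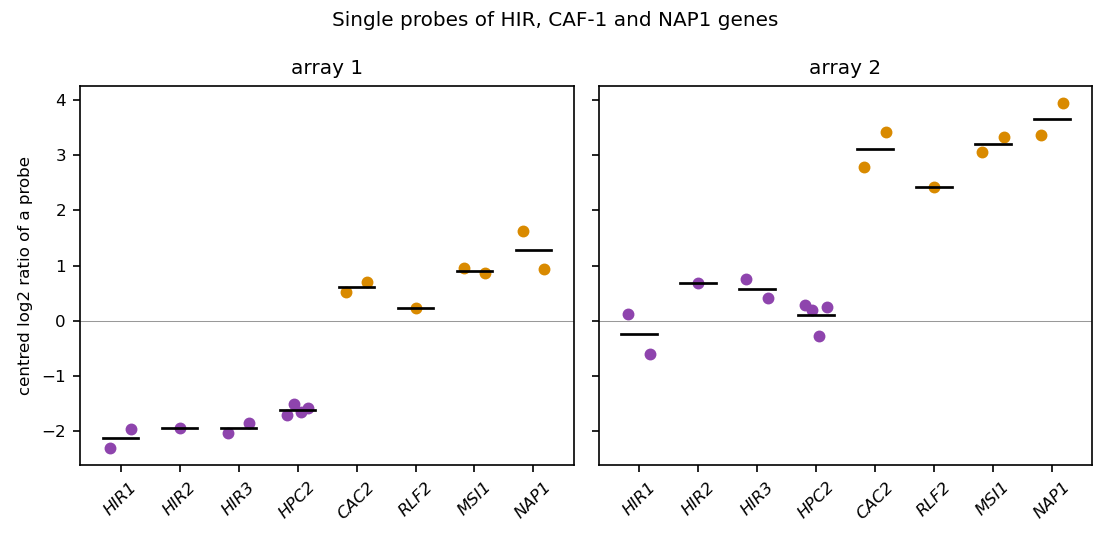
Centred log2 ratio of each probe with a value (points) and the mean of the gene (bars) for the 4 HIR genes (purple) and for the CAF-1 genes and *NAP1* (orange), on array 1 (left) and array 2 (right). Every HIR probe is below -1.5 on array 1 and above -0.7 on array 2, and every CAF-1 and *NAP1* probe is above 0 on both.

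Few genes outside the HIR complex fell within limits drawn around the HIR values. At or below -1.5 on array 1 and at or above -0.5 on array 2 were 12 of 4048 genes (0.296%), limits set after the values were seen. All 4 HIR genes were among the 12, which the limits ensured. After MAD scaling 25 genes met these limits, and all 4 HIR genes were among them. Another 3 belonged to a list of related chromatin genes: *RTT106*, encoding an H3-H4 chaperone that works with HIR at histone genes, at -1.87 and 0.46, *SPT2*, encoding a chaperone of transcribed chromatin, at -2.02 and 1.12, and *SPN1*, encoding an Spt6 partner, at -1.52 and 1.16. *RTT106* was named after its values were seen. The remaining 5 were *YPT6*, *TAM41*, *MSB3*, *UBP14* and *PEX19*. Beyond 1 in opposite directions on the 2 arrays were 3 genes in all, *SPT2*, *SPN1* and *PEX19*. Members and genes of the related list came to 7 of the 12, and to 7 of the 25 after MAD scaling; since the limits were set on the HIR values, these counts are a description only. *YTA7*, encoding a chromatin factor that acts on histone genes, stood at -1.74 on array 1 and had no value on array 2. The limits could therefore not be applied to it, and it too was named after its value was seen. Among the 26 related genes with a value on both arrays, only 3 were at or below -1.5 on array 1. Of the others, *SPT21* stood at 0.18 and 2.92, *VPS75* at 0.34 and 1.14, and *CHZ1* at 0.24 and 1.29.

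**Figure D4:**
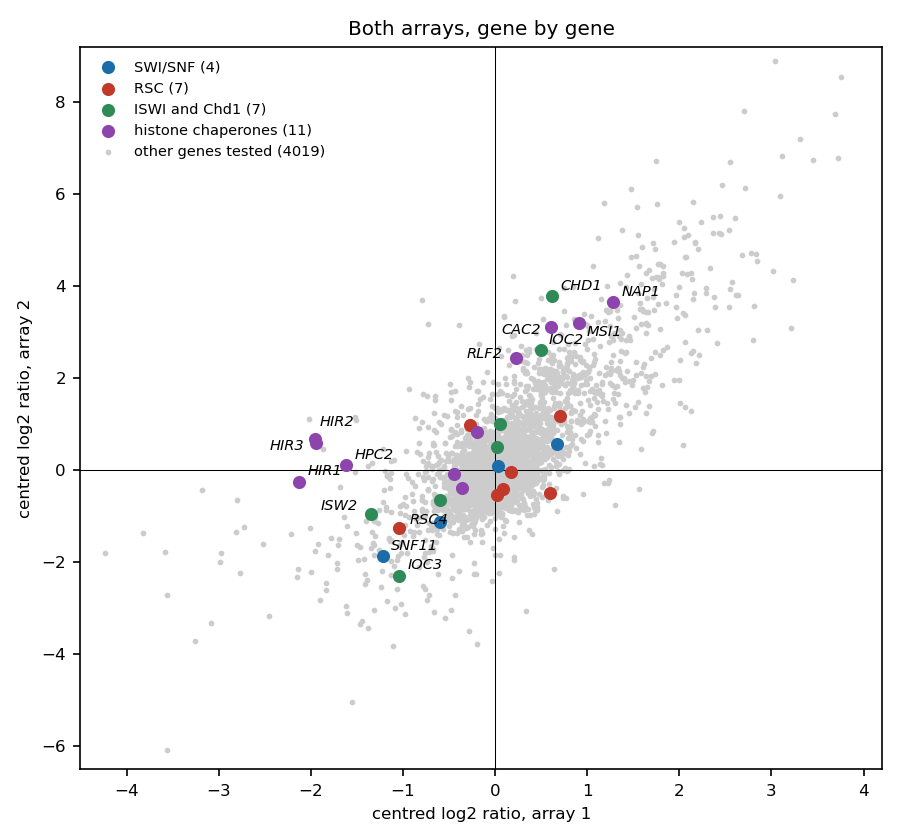
Centred log2 ratio on array 1 (horizontal axis) and array 2 (vertical axis) for the members (coloured by family, the 14 genes described by both arrays or by complex labelled) and the other 4019 genes tested (grey). The HIR genes sit far left at an array 2 value near 0, apart from the diagonal cloud, whose Pearson correlation across the 4048 genes was 0.762.

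Genes of transcription-coupled chaperones lay closer to 0. *SPT16* of FACT stood at -0.36 and -0.39 (mean -0.38 ± 0.02), from 1 probe per array. Its partner gene *POB3* stood at -0.19 and 0.82 (mean 0.31 ± 0.72). *SPT6* stood at -0.44 and -0.09 (mean -0.27 ± 0.25). These 3 essential genes were all negative on array 1, whereas on array 2 *POB3* was positive and the others negative. None of the 3 passed under any setting run.

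Values of the genes next to the HIR and CAF-1 genes are given by array. On array 1, where the HIR genes stood between -2.13 and -1.61, 5 of 6 immediate neighbours with a value lay between -0.35 and 0.18. The sixth was *HOM6*, next to *HIR3*, at -3.56 on array 1 and -6.10 on array 2, so it was low on both arrays. On array 2 the HIR genes stood between -0.25 and 0.69, and their measured neighbours other than *HOM6* between -1.19 and 0.93. On array 2, where the CAF-1 genes stood between 2.43 and 3.20, their 6 neighbours lay between -0.77 and 0.33. On array 1 the 2 ranges overlapped, with CAF-1 genes between 0.23 and 0.91 and their neighbours between -0.27 and 0.68. There *NUP188* stood at 0.68 beside *CAC2* at 0.61. *IOC4*, from the ISWI family, lies next to *MCM1*, which stood at -1.60 and -3.10, while *IOC4* stood at 0.05 and 0.99. Other members had neighbours far from 0 too. *PAB1*, next to *CHD1*, stood at -3.27 on array 1 and had no value on array 2. *KGD1*, next to *STH1*, stood at -1.15 and -1.49, and *MSC1*, next to *RSC9*, at 1.53 and 2.07.

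A list of 32 related genes, chosen by role, held shared subunits, other Snf2-family ATPases, further chaperones and the histone genes. Of these, 26 were measured, with a median of 0.06 (0.02 on array 1 and 0.43 on array 2). By limma none was called as centred, and 6 of 26 had an unadjusted p under 0.05, against 16.7% of all genes. After MAD scaling 4 of 26 (15.4%) were called, all higher, against 11.3% of all genes, and the same 4 after quantile normalization, against 10.7%: *DPB4*, *HHF1*, the H2A gene *HTA1* and *FUN30*, encoding a Snf2-family ATPase. On both arrays 10 were positive and 6 negative, against 34.7% and 33.9% of all genes. At or above 1 on both arrays were *DPB4*, which encodes a histone-fold subunit shared by the Isw2 complex and DNA polymerase epsilon, at 1.08 and 1.70, and the histone H4 gene *HHF1*, at 1.28 and 2.82. *HHF1* was not joined by *HHF2*, the other H4 gene, at -0.37 and -0.47. The 9 histone genes, which HIR represses in part, had a median of 0.18, with -0.20 on array 1 and 0.05 on array 2. *DPB4* lay opposite in sign to *ISW2* and *ITC1*. *DLS1*, which encodes another Isw2 complex subunit, stood at -0.41 and -0.94.

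The remodelers SWR1, which installs the histone variant H2A.Z, and INO80 were set beside the members as a description, with no test. The 29 members had a median of 0.05 (0.02 on array 1 and 0.11 on array 2). The 7 measured SWR1 genes had one of -1.41 (-1.60 and -1.22), and the 8 measured INO80 genes one of 1.67 (0.43 and 2.90). At or below -1 on both arrays were 3 of the 29 members, 4 of 7 SWR1 genes and 2 of 8 INO80 genes, against 2.03% of all genes, and at or above 1 on both were 1 of 29, 0 of 7 and 2 of 8, against 6.4%.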

How the data were processed

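Log2 ratios per probe were taken as the authors deposited them in the series' value table, 1 column per array. How they were computed (log base, centring, direction, normalization, background correction, spot filter) is not given in the sources used here. Log2 was inferred from the range (-4.79 to 3.91 on array 1 and -6.36 to 9.40 on array 2). The column medians were -0.06 and -0.27, and each array was centred on its own. Channel intensities were not used here, so signal over background is unknown. Precision is limited by having 2 arrays.

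Of 15744 probes, 13084 had 1 gene symbol in the platform annotation, none several, and 2660 none. Of 5100 symbols, 64 were updated through the R64 gene table and 2 that matched several genes were left out. That table served for names and neighbours only. Of 4196 genes with values on both arrays, 148 within 100 kb of *PIH1* or *RSA1* were left out, none of them a member. For the 4048 others, limma (version 3.58.1, under R 4.3.3) fitted the mean ratio and tested it against 0 with eBayes, with Benjamini-Hochberg adjustment over all genes at 0.05. Each ratio holds the reference channel of its own array, so variation of that channel between the arrays is part of the spread tested. A reference effect shared by both arrays is not. The fit was tested on simulated data that gave both arrays the same spread, so the test does not cover the unequal array scales seen here. Python 3.11.15 with pandas 2.3.3, numpy 2.4.6 and matplotlib 3.10.9 did the rest.

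The members, families and the related, SWR1 and INO80 lists were chosen with earlier results of these data known. Members with a mean at or beyond 1 are given with both arrays and the test, other measured members with their values, and related genes when at or beyond 1 on both arrays. The related genes *FUN30*, *HTA1*, *HHF2*, *DLS1*, *RTT106*, *YTA7*, *SPT21*, *VPS75* and *CHZ1* are named although they do not meet this limit. Alternatives were another scale between arrays, no centring, the median of probes, at least 2 probes on each array, genes near the query loci kept, other variance moderation, and each array alone. No sequence was used.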

Additional observations from a re-analysis of the deposited data

How the results depend on the processing

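Scaling between arrays decided the calls. The count over all genes was 0 as centred, 456 with both arrays at the same median absolute deviation (MAD scaling) and 432 after quantile normalization. The count of members was 0, 6 and 5 in turn, and it was 0 without centring, with the median of probes, with at least 2 probes, with genes near the query loci kept, and with robust or trended eBayes. The members at or above 1 on both arrays numbered 1 as centred and 2 after either scaling. Those at or below -1 on both numbered 3 as centred, 2 after MAD scaling and 3 after quantile normalization. They numbered 2 with at least 2 probes on each array and 4 without centring. With a single array the members at or below -1 numbered 4 to 8, and those at or above 1 numbered 1 to 7. The single-array medians ran from -0.52 to -0.28 for SWI/SNF, -0.40 to 0.082 for RSC, 0.02 to 0.50 for ISWI and Chd1, -0.36 to 0.69 for the histone chaperones, -1.95 to 0.35 for HIR and 0.61 to 3.11 for CAF-1. The histone chaperone median was 0.02 with at least 2 probes on each array, because fewer genes then count. Without centring the means of *SWI1* (-0.11), *RSC9* (-0.10) and *SFH1* (-0.11) turned negative, and the RSC median was -0.11. Genes low on array 1 alone numbered 12 as centred, 25 after MAD scaling, 13 after quantile normalization and 9 without centring. The HIR genes among them were 4, 4, 4 and 3 in that order. Splitting the chaperones by complex and the limits behind these 12 genes were chosen after seeing the data. No paired analysis was possible because there is a single group. Calls were not run with a single array, which leaves no residual degrees of freedom.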
